A study of Homo sapiens with 3 samples.

Results

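Reads of the human telomerase RNA (hTR) that stop at the mature 3′ end were examined for short adenosine tails. The mature end was the single row with a genomic addition of 0 nt among the 200 rows of each deposited table, whose additions run from 0 to 199 nt. All 6 polyadenylation columns of that row were used, headed 0, 2, 3, 4, 5 and 6, which gives 18 counts over 3 libraries. The headers do not define the zero position, and it was read here as the mature end. It was set against the extended ends, the other 199 rows summed. Reads with a listed polyadenylation length of 2 to 6 are called tailed.

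The libraries came from RNA immunoprecipitation with an anti-Flag M2 antibody of Flag-PABPN1, Flag-hTERT or Flag-DKC1, with 1 library per protein. Each Flag-tagged protein was expressed in human embryonic kidney cells, given as HEK293 and, by source name, as 293FT, from a promoter induced in every library with doxycycline at 500 ng/ml. The tagged proteins were therefore made from an inducible promoter, and the labels do not say whether a line was 1 clone. Libraries for the 3′ ends were made by linker ligation and 3 successive PCR reactions with barcodes, and the barcoded libraries were combined for sequencing. No mock precipitate and no input RNA were analysed here, so no background level could be set beside the values.

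hTR is the RNA that carries the template of telomerase and is encoded by TERC (gene ID 7012), at positions 169764610 to 169765060 of chromosome 3 in GRCh38.p14, where it is annotated as a telomerase RNA. It is made as a longer precursor, and exonucleases trim its 3′ end up to the H/ACA domain, which binds DKC1 (dyskerin). The noncanonical poly(A) polymerase PAPD5 is known to add short adenosine tails to hTR ends, and the deadenylase PARN is known to remove them. PABPN1 binds poly(A) tails in the nucleus, and hTERT is the reverse transcriptase that uses the hTR template.

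Mature ends were numerous in every library. There were 1278074 of 2658507 reads in the PABPN1 library, 1398064 of 3040560 in the hTERT library and 1323876 of 2996292 in the DKC1 library. The rarest of the tailed counts, 137 reads with 6 adenosines in DKC1, comes to 103 reads per 1000000 mature ends, with an interval of 86.9 to 122. Since each protein has a single library, the spread between repeats is unknown and proteins were not tested against each other. Intervals are given at 95%, are not adjusted for the number of comparisons, and cover counting error only, because PCR copies of 1 molecule could not be recognised.

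As placed in the deposited rows, tails were rare at the mature end and common past it. The rule that placed a tail at an addition is not given, and no column lists single adenosines. How far the contrasts below depend on that placement was not tested. In the PABPN1 library 3485 mature ends were tailed, a tailed share of 0.273% (exact interval 0.264 to 0.282%), against 15.6% of extended ends. The hTERT library had 2999 tailed mature ends, 0.215% (0.207 to 0.222%), against 6.85% of its extended ends. In the DKC1 library 2671 mature ends were tailed, 0.202% (0.194 to 0.210%), against 6.46% of extended ends. The tailed share was thus 57.1-fold lower at the mature end than past it in PABPN1 (55.2 to 59.0), 31.9-fold lower in hTERT (30.8 to 33.1) and 32.03-fold lower in DKC1 (30.8 to 33.3).

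No addition with at least 1000 reads had a tailed share as low as the mature end. The lowest such share past the mature end was 6.19% at 8 nt in PABPN1, 3.84% at 7 nt in hTERT and 3.53% at 2 nt in DKC1, over 42, 20 and 20 additions. With tails placed as deposited, the step from the mature end to the adjacent addition of 1 nt was abrupt. The tailed share at 1 nt was 7.93% in PABPN1, 5.34% in hTERT and 5.32% in DKC1.

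The tail lengths at the mature end did not fall off steadily. Tails of 3 adenosines led and tails of 5 came next, while tails of 2, 4 and 6 were each less frequent, in all 3 libraries. In PABPN1 the reads with 2, 3, 4, 5 and 6 adenosines numbered 299, 1981, 400, 602 and 203. In hTERT they numbered 228, 1524, 293, 808 and 146, and in DKC1 229, 1480, 309, 516 and 137. The order of the 5 tail lengths was 3, 5, 4, 2 and 6 in each library. Of tailed mature ends, tails of 3 adenosines took 56.8% in PABPN1 (55.2 to 58.5%), 50.8% in hTERT (49.01 to 52.6%), and 55.4% in the DKC1 library (53.5 to 57.3%). Tails of 5 took 17.3% in PABPN1 (16.03 to 18.6%), 26.9% in hTERT (25.4 to 28.6%), and 19.3% in the DKC1 library (17.8 to 20.9%).

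Extended ends had another order. Their tails of 2 adenosines numbered 142468 in PABPN1, 66760 in hTERT and 63737 in DKC1, or 66.3%, 59.3% and 59.0% of their tailed reads. Tails of 3 and 4 were successively fewer, tails of 5 were the fewest, and the last column, headed 6, held more reads than that for 5. Whether that last column also holds longer tails is not given in the sources used here. The median tail was 3 adenosines at the mature end and 2 at extended ends in each library.

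**Figure D1:**
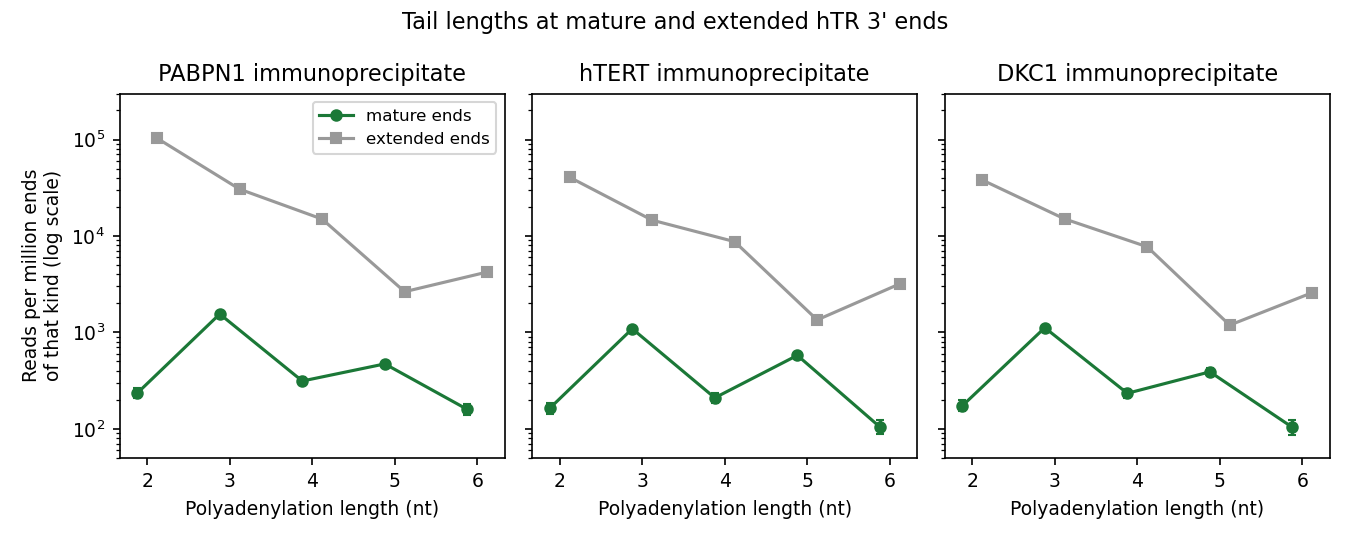
Reads per 1000000 ends of that kind (log scale) by polyadenylation length in nt, for mature ends (circles) and extended ends (squares) of each library; bars are 95% exact intervals for counting error, often smaller than the symbols. In all 3 libraries the mature ends peak at 3 and again at 5 adenosines, whereas the extended ends are lowest at 5.

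The ratio of each tail length to the next shorter listed one shows this alternation. No column is headed 1, so the first ratio sets 2 adenosines against none. At mature ends there were 235 reads with 2 adenosines per 1000000 untailed reads in PABPN1 (209 to 263), 163 in hTERT (143 to 186), and 173 in the DKC1 library (152 to 197). Past the mature end the same values were 122223, 43634 and 40744 per 1000000.

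The ratio of 3 to 2 adenosines was above 1 at the mature end and below 1 past it. It was 6.63 at mature ends (exact conditional interval 5.86 to 7.51) against 0.296 at extended ends in PABPN1. In hTERT it was 6.68 (5.81 to 7.72) against 0.359, and in DKC1 6.46 (5.62 to 7.46) against 0.394. The mature values lay within one another's intervals. Mature over extended, the ratio was 22.4 times higher in PABPN1 (19.8 to 25.3), 18.6 times in hTERT (16.2 to 21.4) and 16.4 times in DKC1 (14.3 to 18.9). Much of the extended count of tails of 2 lay at the addition of 3 nt, which held 35109 of them in PABPN1, 27811 in hTERT and 23916 in the DKC1 library. Without the additions of 1 and 3 nt, the ratio was 16.9, 10.9 and 9.91 times higher at the mature end.

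From 3 to 4 adenosines the order turned. The ratio of 4 to 3 was 0.202 at mature ends (0.181 to 0.225) against 0.4895 at extended ends in PABPN1, 0.192 (0.169 to 0.218) against 0.598 in hTERT, and 0.209 (0.184 to 0.236) against 0.514 in DKC1. The drop from 3 to 4 adenosines was thus steeper at the mature end in each library. Here too the 3 mature values overlapped in their intervals.

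The ratio of 5 to 4 adenosines was again above 1 at the mature end and below 1 past it. It was 1.505 at mature ends (1.32 to 1.71) against 0.177 at extended ends in PABPN1, 2.76 (2.41 to 3.16) against 0.154 in hTERT, and 1.67 (1.45 to 1.93) against 0.154 in DKC1. The hTERT value stood apart, with an interval above those of PABPN1 and DKC1, which overlapped. The last ratio, of 6 to 5, was 0.337 at mature ends (0.286 to 0.396) against 1.599 at extended ends in PABPN1. It was 0.181 (0.150 to 0.216) against 2.36 in hTERT and 0.266 (0.218 to 0.321) against 2.17 in DKC1. Single additions in PABPN1 lay on both sides of 1, with 0.860 at 1 nt, 0.719 at 5 nt and 0.530 at 8 nt but 6.08 at 3 nt. A ratio of 6 to 5 below 1 was thus not particular to the mature end in PABPN1. At 1 nt it was 1.37 in hTERT and 1.36 in DKC1.

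**Figure D2:**
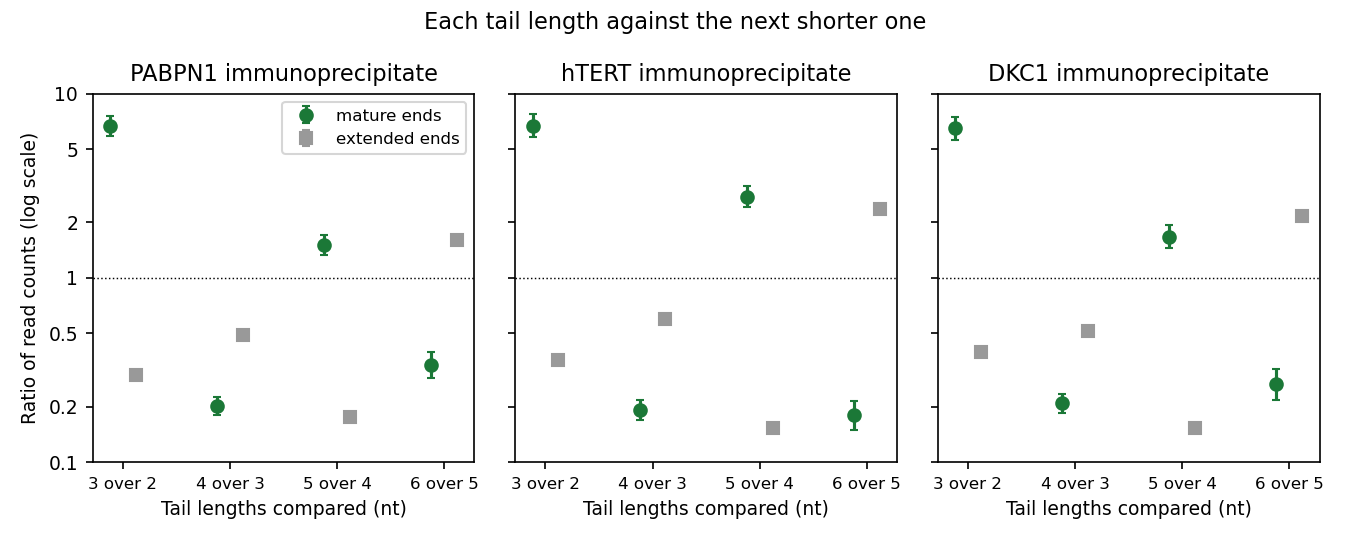
Ratio of the read count of each tail length to that of the next shorter one (log scale), for mature ends (circles) and extended ends (squares) of each library; bars are 95% exact intervals for counting error and the dotted line marks equality. Mature ends lie above 1 for 3 over 2 and 5 over 4 and below 1 for 4 over 3 and 6 over 5; extended ends lie above 1 only for 6 over 5.

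The scarcity of tails at the mature end differed by tail length. Tails of 2 adenosines were the most depleted, with 234 reads per 1000000 mature ends against 103205 per 1000000 extended ends in PABPN1, a level 441-fold lower (394 to 494). In hTERT they were 249-fold lower (219 to 284) and in DKC1 220.3-fold lower (194 to 251). Without the additions of 1 and 3 nt these levels were 379-, 154- and 143-fold lower. Tails of 5 were the least depleted, at 5.61-fold lower in PABPN1 (5.14 to 6.11), 2.33-fold in hTERT (2.15 to 2.53) and 3.05-fold in DKC1 (2.77 to 3.36). Tails of 3 were 19.7-fold lower in PABPN1 (18.9 to 20.6), 13.4-fold in hTERT (12.7 to 14.1) and 13.4-fold in DKC1 (12.7 to 14.2). Tails of 4 and 6 lay between those of 2 and 3, from 24.9-fold lower for 6 in DKC1 to 47.8-fold lower for 4 in PABPN1.

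Tails of 5 adenosines were accordingly the listed tail with the largest part at the mature end. Of all reads with 5 adenosines, 14.2% in PABPN1 (13.1 to 15.3%), 26.8% in hTERT (25.2 to 28.4%), and 20.6% in the DKC1 library (19.04 to 22.2%) ended there. For tails of 3 the shares were 4.48%, 5.98% and 5.56%, and for tails of 2 they were 0.209%, 0.340% and 0.358%. The mature end held 48.1%, 46.0% and 44.2% of all reads, so each of these shares lay below that. The 602 PABPN1 reads and 808 hTERT reads with 5 adenosines at the mature end exceeded the count at any addition, of which the highest were 486 and 593, both at 1 nt. In DKC1 the 516 reads at the mature end were second to the 524 at 1 nt. Per end, tails of 5 were rarer at the mature end than at 1 nt. They were 0.0471% against 0.234% in PABPN1, 0.0578% against 0.247% in hTERT and 0.0390% against 0.194% in DKC1.

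Additions past the mature end were also taken one by one. The alternation was set against single additions with at least 100 tailed reads, of which PABPN1 had 58, hTERT 24 and DKC1 22. In PABPN1, 0% of them had more tails of 3 than of 2 adenosines, in hTERT 8.33% and in DKC1 9.09%. These were additions of 4 and 5 nt in hTERT and DKC1. Their ratio of 3 to 2 was 1.10 at 4 nt and 1.09 at 5 nt in hTERT, and 1.09 at 4 nt and 1.18 at 5 nt in DKC1, all far below the mature values. In PABPN1 the highest ratios past the mature end were 0.769 at 5 nt, 0.699 at 9 nt and 0.650 at 4 nt. The third highest in the others was at 2 nt, with 0.777 in hTERT and 0.774 in DKC1. The medians over additions were 0.318, 0.385 and 0.407.

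No single addition with at least 100 tailed reads had more tails of 5 than of 4 adenosines (0% of 58, 24 and 22 additions). The additions of 1 and 2 nt lay between the mature end and the median addition. The ratio of 5 to 4 at 1, 2 and 3 nt was 0.426, 0.228 and 0.0959 in PABPN1, 0.486, 0.436 and 0.186 in hTERT, and 0.464, 0.368 and 0.221 in DKC1. It thus fell with each added nucleotide over this range in all 3 libraries, and the values at 1 and 2 nt were the highest of the 24 and 22 additions in hTERT and DKC1. In PABPN1 the value at 1 nt rested on 486 and 1140 reads, and the only higher one, 0.429 at 54 nt, on 3 and 7 reads (interval 0.0715 to 1.88). The medians over additions were 0.148, 0.124 and 0.137.

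The summed share of odd tails, of 3 and 5 adenosines, gives the same contrast in 1 value, which was chosen after its values were seen. Odd tails made up 74.1% of tailed mature ends in PABPN1 (72.6 to 75.6%), against 21.3% of tailed extended ends. In hTERT they made up 77.8% (76.2 to 79.2%) against 23.3%, and in DKC1 74.7% (73.04 to 76.4%) against 25.1%. No single addition with at least 100 tailed reads exceeded the mature end in this share (0% in each library). The highest, at 5 nt, were 38.4%, 41.1% and 43.97%, and the lowest, at 3 nt, were 5.12%, 7.76% and 10.2%.

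By the make-up of tail lengths as a whole, no addition came close to the mature end. The total variation distance, the share of tailed reads that would have to change length to turn a make-up into another, was 57.7% between mature and extended ends in PABPN1, 54.7% in hTERT and 50.8% in DKC1. The nearest single additions were 5, 2 and 4 nt in PABPN1, at 40.2%, 42.3% and 43.1%. In hTERT they were 5, 4 and 2 nt, at 38.4%, 42.1% and 44.8%, and in DKC1 the same 3, at 33.6%, 37.6% and 41.9%. The adjacent addition of 1 nt was at 62.4%, 53.9% and 56.8%, and the addition of 3 nt, where tails of 2 took 91.8%, 83.7% and 80.9% of tailed reads, was the farthest in each library.

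**Figure D3:**
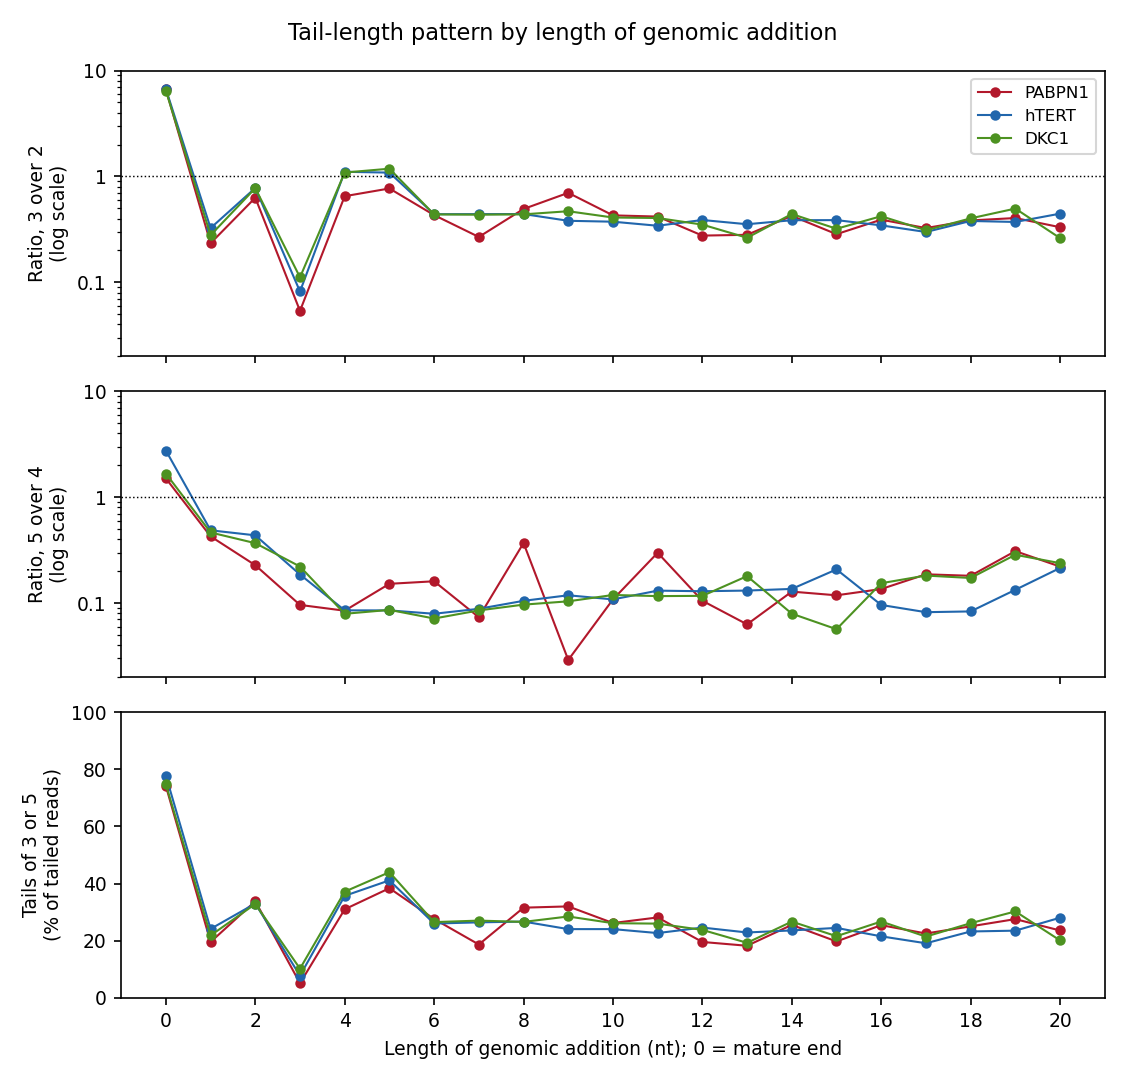
Ratio of tails of 3 to 2 adenosines and of 5 to 4 adenosines (log scales; dotted lines mark equality) and the percentage of tailed reads with 3 or 5 adenosines, by length of genomic addition in nt up to 20, with 1 line per library and no error bars. The mature end, at 0, is the highest point of every line in all 3 panels.

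Between libraries, mature ends were tailed more often in PABPN1 than in the others. The tailed share of mature ends in PABPN1 was 1.27 times that in hTERT (Katz interval 1.21 to 1.33) and 1.35 times that in DKC1 (1.29 to 1.42). Summed over all extended ends the ratios were 2.27 and 2.41, but this sum holds more long additions in PABPN1 and depends on that mix. At the adjacent addition of 1 nt the ratio was 1.49 over hTERT (1.45 to 1.52) and 1.49 over DKC1 (1.46 to 1.52). Over additions of 1 to 4 nt, a range added after the values were seen, it was 1.67 over hTERT and 1.92 over DKC1. Over additions of 15 to 19 nt it was 1.03 over hTERT (0.993 to 1.08) and 1.15 over DKC1 (1.10 to 1.21). The PABPN1 excess at the mature end was thus below that at 1 to 4 nt, and no general contrast with extended ends holds at every length. The hTERT share was 1.06 times the DKC1 share both at mature ends (1.01 to 1.12) and at the summed extended ends (1.05 to 1.07). That sum also depends on the mix of additions. The ratio was 1.003 at 1 nt (0.980 to 1.03), 1.25 at 3 nt (1.23 to 1.26) and 0.959 at 5 nt (0.937 to 0.981). It was below 1 at 4 of 22 additions. How much of these differences would recur in repeat libraries cannot be told from 1 library each.

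Most single tail lengths kept the same order between libraries at the mature end, and tails of 5 adenosines did not. Reads with 3 adenosines came to 1550.0 per 1000000 mature ends in PABPN1, 1090.1 in hTERT and 1118 in DKC1. The PABPN1 level was 1.42 times that of hTERT (1.33 to 1.52) and 1.39 times that of DKC1 (1.30 to 1.48). Over hTERT, the PABPN1 ratios for tails of 2, 4 and 6 were 1.43 (1.21 to 1.70), 1.49 (1.28 to 1.74) and 1.52 (1.23 to 1.88). Over DKC1 they were 1.35 (1.14 to 1.61), 1.34 (1.16 to 1.56) and 1.53 (1.24 to 1.91). These 4 tail lengths were thus in excess in PABPN1 by similar factors, with overlapping intervals.

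Tails of 5 adenosines came to 471 per 1000000 mature ends in PABPN1 (434 to 510.2), 578 in hTERT (539 to 619), and 390 in the DKC1 library (357 to 425). They were highest in hTERT, at 1.48 times the DKC1 level (1.33 to 1.66). PABPN1 stood at 0.815 of the hTERT level (0.733 to 0.906) and at 1.21 times the DKC1 level (1.07 to 1.36). The additions next to the mature end also had no PABPN1 excess of these tails over hTERT. The ratio of PABPN1 over hTERT was 0.944 at 1 nt (0.838 to 1.06), 0.853 at 2 nt (0.708 to 1.03), 0.397 at 3 nt (0.307 to 0.514) and 0.966 at 4 nt (0.761 to 1.23). Over 1 to 4 nt together, a range added after the values were seen, it was 0.860 (0.790 to 0.937). That value leaned on 3 nt, with 71 against 302 reads, since the intervals at 1, 2 and 4 nt each include 1. At 5, 6 and 8 nt the ratio was 1.85, 2.22 and 3.86, and at 7 and 9 nt it was 1.05 and 0.680. Over 1 to 9 nt together it was 1.20. Within that range only 3 nt had a single interval below 1, so the direction past the mature end depended on the additions taken. Summed over all extended ends the ratio was 1.96 (1.86 to 2.07). The hTERT excess over DKC1 was also seen at 1 nt, at 1.28 (1.13 to 1.43), and at 2 nt, at 1.35 (1.16 to 1.58). It was 1.23 at 4 nt (1.03 to 1.47) but 0.941 at 3 nt (0.808 to 1.10). Of 22 additions compared for hTERT over DKC1, 9 had a ratio below 1. As a share of tailed mature ends, tails of 5 in PABPN1 were 0.641 of the hTERT share and 0.894 of the DKC1 share, so the order of PABPN1 and DKC1 depended on the denominator.

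Apart from tails of 5, the intervals of hTERT over DKC1 at mature ends did not exclude 1. The ratios of hTERT over DKC1 for tails of 2, 3, 4 and 6 were 0.943 (0.785 to 1.13), 0.975 (0.908 to 1.05), 0.898 (0.765 to 1.05) and 1.01 (0.799 to 1.27). Each interval includes 1, which does not show that the libraries were equal at these lengths. The interval for tails of 5 excludes 1, which does not show a difference between the proteins. All of these intervals take reads as independent and rest on 1 library per protein.

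The make-up of the mature tails accordingly set the hTERT library apart, through its tails of 5 and with 1 library per protein. The total variation distance between the tailed mature ends was 9.67% for PABPN1 and hTERT, 2.14% for PABPN1 and DKC1 and 7.62% for hTERT and DKC1. With tails of 5 left out, an alternative added after the values were seen, the distances were 0.879%, 0.720% and 1.19%. For the summed extended ends the closest pair was another one, since the distances were 6.98%, 7.35% and 1.95%.

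**Figure D4:**
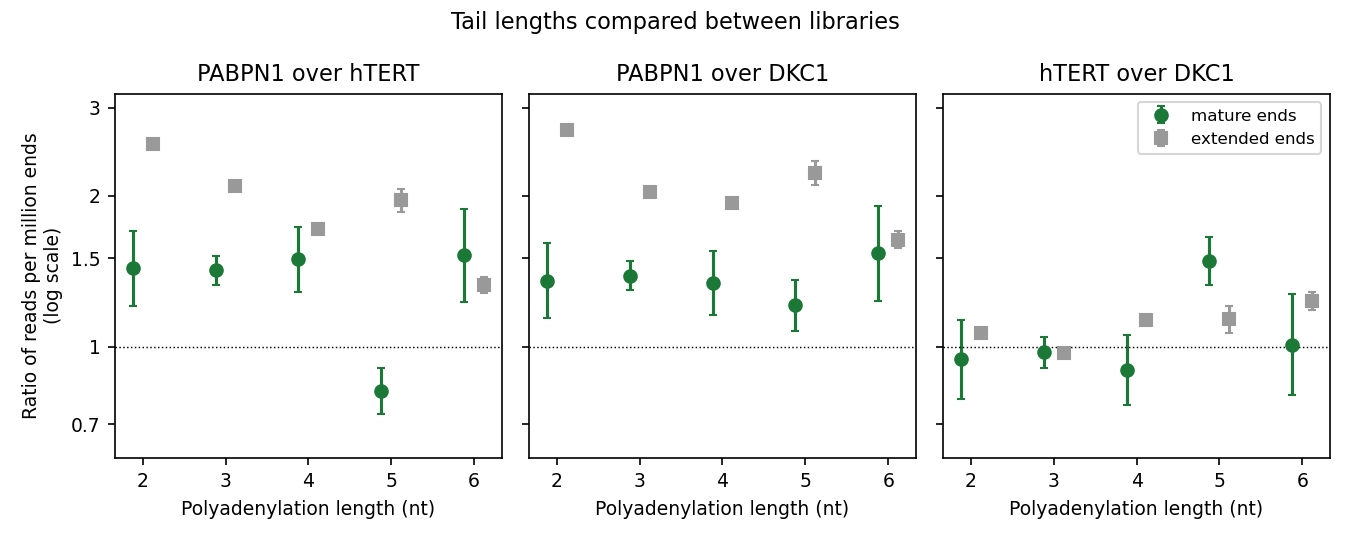
Ratio of reads per 1000000 ends (log scale) between pairs of libraries by polyadenylation length in nt, for mature ends (circles) and extended ends (squares); bars are 95% Katz intervals for counting error and the dotted line marks equality. At mature ends, tails of 5 adenosines are the only length below 1 for PABPN1 over hTERT (0.815) and the only one whose interval excludes 1 for hTERT over DKC1 (1.48).

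The position assigned to a tail limits how these values can be read. The rule that separated added adenosines from those of the genome is not given in the sources used here, and no sequence of the gene's 3′ flank was used, so a tail at the mature end could not be told apart from a tail placed at a neighbouring addition. The addition of 1 nt held more tailed reads than the mature end, at 16498 in PABPN1, 12800 in hTERT and 14383 in DKC1. When it was counted as mature too, the tailed share was 1.34%, 0.965% and 1.07%. Mature minus extended, the tailed share was then -15.6, -6.14 and -5.61 points. The ratio of 3 to 2 adenosines was 0.393, 0.508 and 0.425, all below 1. The alternation was thus seen in the row of 0 nt and not in its sum with the row of 1 nt. The result for the sum follows from its construction, since the row of 1 nt held 11717, 7680 and 9401 tails of 2 adenosines.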

How the data were processed

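The deposited tables hold whole-number read counts per length of genomic addition and polyadenylation length, per the file headers, with 1 table per immunoprecipitate. The submitters' processing notes name cutadapt, Bowtie, Bowtie2 and build hg38, with no role or order; removal of duplicate reads and the counting of single adenosines are not given in the sources used here. Counts were used as deposited, without normalization. Shares have exact Clopper-Pearson intervals, ratios of counts exact conditional binomial ones, differences Newcombe ones, ratios of shares Katz ones and ratios of ratios log-normal ones, all at 95%. Their coverage was checked on simulated independent reads drawn from the mature and summed extended counts of PABPN1 and hTERT. That simulation held no PCR copies and no small counts of single additions. Single additions were used from 100 tailed reads on. The additions named were the 3 closest to the mature end in tail make-up, the 3 with the highest ratio of 3 to 2 adenosines, and those of 1, 2 and 3 nt. The members, lists and measures were chosen with earlier results of these data known. Alternatives were a mature end of 0 and 1 nt, other tail definitions and other sets of extended ends. The position of TERC is that of RefSeq for GRCh38.p14. Values were computed with scipy 1.17.1 and numpy 2.4.6 under Python 3.11.15, and plots drawn with matplotlib 3.10.9.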

Additional observations from a re-analysis of the deposited data

Results flagged for a closer look

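Several ratios lay on opposite sides of 1 at mature and at extended ends. None of these differences was tested, since each library stands alone. For tails of 3 over 2 adenosines the mature and extended values were 6.63 and 0.296 in PABPN1, 6.68 and 0.359 in hTERT, and 6.46 and 0.394 in DKC1. For tails of 5 over 4 they were 1.505 and 0.177 in PABPN1, 2.76 and 0.154 in hTERT, and 1.67 and 0.154 in DKC1. For tails of 6 over 5 they were 0.337 and 1.599 in PABPN1, 0.181 and 2.36 in hTERT, and 0.266 and 2.17 in DKC1. Here the last column may hold longer tails. Some single additions in PABPN1 also had a ratio of 6 to 5 below 1, such as 0.860 at 1 nt, while others were above it, such as 6.08 at 3 nt.

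Between libraries, tails of 5 adenosines per 1000000 ends were lower in PABPN1 than in hTERT at mature ends, at a ratio of 0.815, and higher over the summed extended ends, at 1.96. At additions of 1 to 4 nt the ratio was 0.860, where only 3 nt (0.397) had a single interval below 1. At additions of 1 to 9 nt it was 1.20, so the direction past the mature end depended on the range taken. For hTERT over DKC1 the mature and extended ratios were 0.943 and 1.07 for tails of 2 and 0.898 and 1.13 for tails of 4. Both of these mature ratios have intervals that include 1.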

How the results depend on the processing

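The alternatives gave 99 values, of which 15 lay inside the interval of the value in the report, 76 lay outside it or had none, and 8 changed direction. Libraries are given in the order PABPN1, hTERT, DKC1. With additions of 0 and 1 nt both counted as mature, the ratio of 3 to 2 adenosines turned to 0.393, 0.508 and 0.425 and that of 5 to 4 to 0.706, 0.927 and 0.723. The tailed share was then 1.34%, 0.965% and 1.07%, the share of 3-adenosine tails 23.6%, 25.4% and 24.01%, the share of odd tails 29.1%, 34.3% and 30.1%, and mature minus extended tailed share -15.6, -6.14 and -5.61 points. This follows from the construction, since 1 nt holds more tailed reads than the mature end. With tails of 3 or more only, the tailed share was 0.249%, 0.198% and 0.184%, the difference -4.99, -2.59 and -2.47 points and the share of 3-adenosine tails 62.2%, 55.0% and 60.6%. Without tails of 6 these were 0.257%, 0.204% and 0.191%, then -14.9, -6.35 and -6.03 points, then 60.4%, 53.4% and 58.4%, and odd tails 78.7%, 81.7% and 78.8%. Without additions of 1 and 3 nt the difference was -14.6, -5.12 and -5.02 points and the extended ratio of 3 to 2 was 0.393, 0.614 and 0.652. Mature over extended, that ratio was then 16.9, 10.9 and 9.91, and tails of 2 were 379-, 154- and 143-fold lower at the mature end. With extended ends of 1 to 9 nt the difference was -11.5, -6.43 and -6.11 points, and the extended ratio moved in PABPN1 only, to 0.237. With equal weight per addition the difference was -35.2, -12.7 and -10.3 points and the ratio 0.342, 0.446 and 0.458; the reported differences were -15.3, -6.63 and -6.26 points. Leaving out additions under 10 reads moved neither value. Per tailed mature end, tails of 5 stood at 0.641 for PABPN1 over hTERT and turned to 0.894 for PABPN1 over DKC1. At extended ends of 1 to 4, 1 to 9 and 15 to 19 nt the tailed share stood at 1.67, 1.78 and 1.03 for PABPN1 over hTERT and at 1.92, 1.87 and 1.15 over DKC1. For hTERT over DKC1 it was 1.15 at 1 to 4 nt and 1.11 at 15 to 19 nt. Tails of 5 there stood at 0.860, 1.20 and 1.15 for PABPN1 over hTERT, the first reversed, at 1.03, 1.35 and 1.41 over DKC1, and at 1.22 for hTERT over DKC1 at 15 to 19 nt. Distances between tail make-ups (PABPN1 and hTERT, PABPN1 and DKC1, hTERT and DKC1) were 0.879%, 0.720% and 1.19% without tails of 5 and 9.98%, 2.03% and 7.96% without tails of 6. The alternatives for odd tails, the ratio of 5 to 4, the ratio of 3 to 2 of mature over extended ends, tails of 2, values between libraries and the distances were added after seeing the data. No paired analysis was possible because each protein has 1 library. Depth limits the tails of 6 most, which rest on 203, 146 and 137 mature reads.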
